A study of Mus musculus with 16 samples.

Results

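The RNA of 9 genes that set how long cytokine messages last was followed in mouse bone marrow-derived macrophages (BMDMs) treated with tumor conditioned medium, a JAK inhibitor and an IKK inhibitor. The genes were Zfp36, Zfp36l1, Zfp36l2, Zc3h12a, Zc3h12c, Rc3h1, Rc3h2, Elavl1 and Khsrp. They were chosen by function, as genes for proteins that bind AU-rich elements or stem-loops in messages, and were found in the deposited count table by symbol. All 9 of the 55487 genes of the table were found, and all 9 were among the 12372 genes above 1 CPM (counts scaled to the size of the library) in at least 2 samples, which were the genes tested. The lowest count of any of the 9 in a sample was 755.

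All 16 samples were BMDMs of 8-week-old wild-type Balb/c mice in 6 groups. The DMEM group (n = 2) received medium without tumor factors, and DMEM + Rux (n = 3) received the same medium with ruxolitinib at a dose that the labels do not give. CM (n = 3) received conditioned medium of 4T1 cells, a mouse mammary tumor cell line. CM + Rux (n = 3), which carries a label of 4 h, received CM with 0.5 μM ruxolitinib, an inhibitor of JAK1 and JAK2. CM + Rux 2 h (n = 2) carries the same label with 2 h in place of 4 h, and what these hours refer to is not stated. CM + Rux + IKK-16 (n = 3) received IKK-16 at 0.8 μM, an inhibitor of the kinases that activate NF-κB, on top of CM and the same dose of ruxolitinib, and no group received IKK-16 without ruxolitinib. Before CM the cells were serum starved for 2 h, ruxolitinib was already present in this step, and treatment before RNA isolation is described as lasting 4 h. 4T1 cells are grown in another base medium than DMEM, so tumor factors and medium composition cannot be told apart in a comparison of CM with DMEM. The labels do not say whether replicates were separate animals or cultures, so the spread between samples may be partly technical.

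Between 18449388 and 46215853 fragments per sample were assigned to genes. All 8 macrophage markers, among them Cd68 and Csf1r, were above 1 CPM in every sample. No marker of mammary epithelium (6 genes) or of T and NK cells (6 genes) reached 1 CPM in any sample, so RNA of the tumor cells themselves was near 0, with a summed level of at most 1.45 CPM. Of the neutrophil, B cell and dendritic cell markers at most 1 gene of each list passed 1 CPM in a sample. Of 5 fibroblast markers 2 to 3 did, with summed levels of 5.73 to 20.9 CPM, and their part in the results was not tested. In RNA of whole cultures, fewer cells of a type and less RNA per cell cannot be told apart.

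Macrophages make cytokine messages in bursts, and these messages carry signals for fast removal in their 3′ untranslated region (UTR). AU-rich elements are bound by tristetraprolin (TTP, gene Zfp36) and its relatives Zfp36l1 and Zfp36l2, which bring the CCR4-NOT deadenylase to the message, and by KSRP (Khsrp), which brings the exosome. HuR (Elavl1) binds AU-rich elements too but is best known for stabilizing messages. Stem-loops are cut by the endonuclease Regnase-1 (Zc3h12a) and its relative Zc3h12c, or bound by Roquin (Rc3h1 and its relative Rc3h2), which also recruits deadenylases. TTP and Regnase-1 are induced by the same inflammatory signals as their targets, and both proteins are also controlled by phosphorylation or cleavage, which RNA levels do not show.

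The letters that these proteins recognize can be seen in the messages themselves. The set below shows windows of 30 bases around the AU-rich nonamer TTATTTATT, in capitals, in the messages of the TTP family and of 3 of their best-known targets, Tnf, Csf2 and Cxcl2. They were read 5′ to 3′ on the strand of the gene, from the longest annotated 3′ UTR of each gene in GENCODE M21 (GRCm38). Zfp36, Zfp36l1 and Zfp36l2 each held 1 nonamer, Csf2 and Cxcl2 held 4 and Tnf held 5, where matches may overlap. Of the other targets on the list used below, Il23a, Cxcl1, Lif, Ptgs2 and Vegfa held 1 or 2. The rest, among them Il6, Il1b and Il10, held 0. Of 20921 genes with a 3′ UTR, 7.7% held at least 1. A match describes letters and is not a measured binding site.
Zfp36 (chr7:28376950-28376979, minus strand): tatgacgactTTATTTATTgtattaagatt
Zfp36l1 (chr12:80108166-80108195, minus strand): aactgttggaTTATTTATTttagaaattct
Zfp36l2 (chr17:84184913-84184942, minus strand): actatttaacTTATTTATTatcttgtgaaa
Tnf (chr17:35199681-35199710, minus strand): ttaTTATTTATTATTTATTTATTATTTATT
Csf2 (chr11:54247320-54247349, minus strand): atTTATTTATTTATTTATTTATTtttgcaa
Cxcl2 (chr5:90905336-90905365, plus strand): atctatgtatTTATTTATTTATTaattcca

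The second set shows stem-loops, in capitals, in Zc3h12a itself, which held 3 and no nonamer, and in Tnf, Ier3 and Nfkbid, targets of Roquin or Regnase-1. A stem-loop was searched as a stem of 5 pairs around a loop of 3 bases, pyrimidine, purine, pyrimidine. Of the same 20921 UTRs, 21.2% held such a match, so it is a common pattern. Tnf held both kinds of signal.
Zc3h12a (chr4:125119061-125119090, minus strand): ccctgttgATACACATTGTATctctgtcat
Zc3h12a (chr4:125118879-125118908, minus strand): gctagttaGGCACCATGTGCCtgctctctg
Zc3h12a (chr4:125118655-125118684, minus strand): ggcgagatTTAAATATTTTAAatgaaaaag
Tnf (chr17:35199577-35199606, minus strand): cagacatgTTTTCTGTGAAAAcggagctga
Ier3 (chr17:35822867-35822896, plus strand): agtatgtaTGTTCTGTGAACAcgaataaac
Nfkbid (chr7:30428395-30428424, plus strand): tctaggtgATTTCTGTGAAATcgagcccac

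The longest 3′ UTR of Elavl1 held 8 nonamers and that of Zc3h12c held 1 stem-loop. Rc3h1 held 1 nonamer and 4 stem-loop matches, of which those at UTR positions 2002 and 2005 overlap. Rc3h2 held 1 nonamer and 2 stem-loops, and Khsrp held neither.

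In CM against DMEM, which asks what tumor factors do to these genes, 3 of the 9 genes were called higher and 0 lower, where 45% of all 12372 genes tested were called in either direction, 20.9% higher and 24.1% lower. A gene was called at an adjusted p-value under 0.05 (Benjamini-Hochberg over all genes tested, quasi-likelihood test of edgeR) and a log2 fold change beyond 0.5. The median log2 fold change of the 9 genes was 0.49, and that of all genes was -0.00. The scaling used, relative log expression (RLE), placed the values of CM against DMEM 0.31 (log2) above those from scaling by total counts. This shift was read from the mean log2 scaling factors of CM and DMEM. CPM values below are RLE-scaled levels.

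Zc3h12a, the gene of Regnase-1, had the widest range of the 9 genes. It stood at 43.7 and 35.5 CPM in DMEM, and at 508, 601 and 503 CPM in CM. Every CM sample was over both DMEM samples, with a fold of 13.5 (log2 fold change 3.76 ± 0.14 SE, edgeR adjusted p = 8.8e-10). Over the alternative settings the log2 fold change stayed between 3.44 and 3.92.

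Zfp36 rose with it. Its levels were 155 and 119 CPM in DMEM and 551, 767 and 534 CPM in CM, and the groups did not overlap. The fold was 4.498 (log2 fold change 2.17 ± 0.35 SE, edgeR adjusted p = 0.00012). The relatives of Zfp36 did not pass the test. Zfp36l1 was at 141 and 202 CPM in DMEM and at 164, 219.9 and 127 CPM in CM. Zfp36l2 was at 239 and 218 CPM in DMEM and at 232, 382 and 181 CPM in CM. For both, the CM samples lay on either side of the DMEM samples, and the 95% intervals of the log2 fold change ran from -0.72 to 0.70 for Zfp36l1 and from -0.65 to 1.09 for Zfp36l2. The value of Zfp36l2 turned from 0.22 to -0.11 with scaling by total counts and that of Zfp36l1 from -0.01 to 0.10 with the replicate block (the replicate number as a term of the model).

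Elavl1, the gene of the stabilizing protein HuR, was the third gene called. It was at 68.4 and 55.4 CPM in DMEM and at 111, 119 and 112 CPM in CM, with no overlap and a fold of 1.84 (log2 fold change 0.88 ± 0.08 SE, edgeR adjusted p = 5.1e-07). Khsrp was at 134 and 117 CPM in DMEM and at 167, 160.2 and 165 CPM in CM. Its adjusted p of 0.00067 (edgeR) passed, and its log2 fold change of 0.39 did not. With scaling by total counts these log2 fold changes were 0.57 for Elavl1 and 0.077 for Khsrp.

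Of the Roquin genes, Rc3h2 was at 68.5 and 65.6 CPM in DMEM and at 99.8, 95.7 and 86.3 CPM in CM. Its log2 fold change of 0.49 was just under the threshold (edgeR adjusted p = 0.0023), and with the replicate block it was 0.54 and called higher (adjusted p = 5.0e-05). It was also called without replicate 3 of CM (0.55, adjusted p = 0.0021) and without replicate 1 of DMEM (0.52, 0.013). Rc3h1 differed less, with 97.1 and 109 CPM in DMEM and 133, 122 and 117 CPM in CM (log2 fold change 0.27, edgeR adjusted p = 0.099), and with scaling by total counts its value was -0.04. Zc3h12c, the relative of Regnase-1, was at 102 and 67.2 CPM in DMEM and at 151, 82.7 and 131 CPM in CM. The 2 groups overlapped (log2 fold change 0.52, edgeR adjusted p = 0.14), and it was called higher without replicate 2 of CM (0.74, adjusted p = 0.040) and without a filter on low counts (0.53, 0.027), while without replicate 2 of DMEM its value was 0.25 (adjusted p = 0.58).

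**Figure D1:**
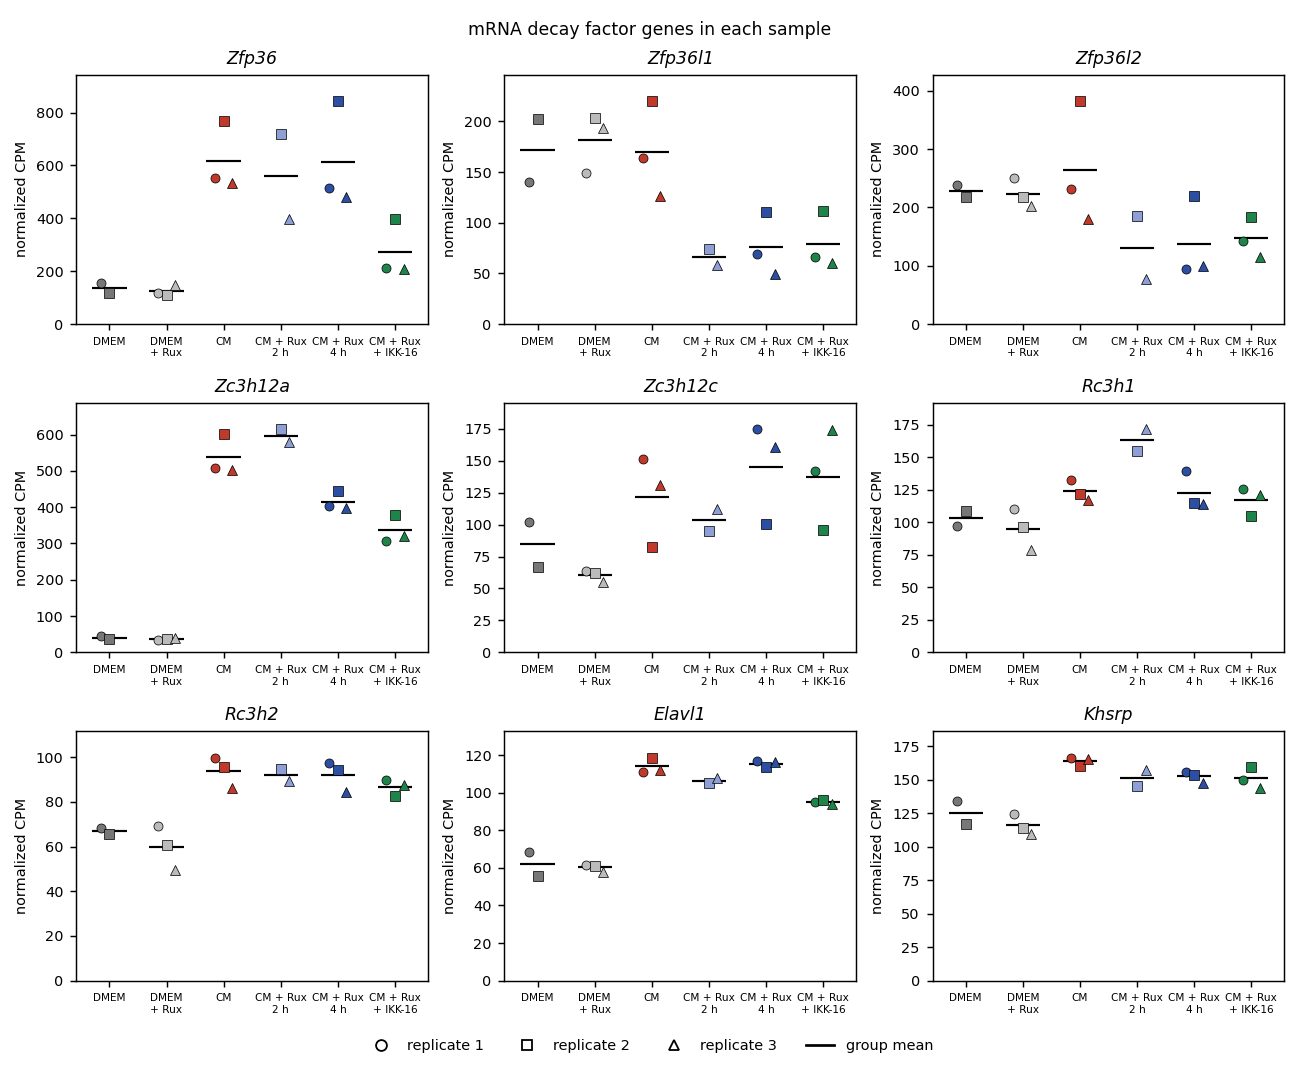
RLE-scaled CPM (linear axis from 0) of each of the 9 genes in each sample, by group, with symbols for the replicate number and a bar for the group mean. Zc3h12a and Zfp36 are higher in every group with CM than in the groups without it. Among the groups with CM, Zfp36 is lowest in CM + Rux + IKK-16 (mean 274 CPM, against 617 in CM). Zfp36l1 is lower in the 3 groups with CM and ruxolitinib, and Khsrp spans the narrowest range, 1.42-fold between its highest and lowest group.

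Ruxolitinib added to CM (CM + Rux against CM) asks which part of these levels changes when JAK1 and JAK2 are inhibited. Of the 9 genes 0 were called higher and 1 lower, Zfp36l1, against 3.33% of all genes called in either direction, 1.2% higher and 2.13% lower. Zfp36l1 was at 69.2, 111 and 49.2 CPM in CM + Rux, and each of these was under all 3 CM samples. The fold was 2.22 lower (log2 fold change -1.15 ± 0.30 SE, edgeR adjusted p = 0.045). This call was lost without replicate 1 of CM (adjusted p = 0.093), replicate 2 of CM (0.19), replicate 1 of CM + Rux (0.17) or replicate 3 of CM + Rux (0.17), and in a model of only these 2 groups (0.10). With the replicate block it was -1.18 (adjusted p = 0.00025), and in all 3 same-numbered pairs Zfp36l1 was lower with ruxolitinib.

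Zfp36l2 had a like value that was not called. It was at 94.5, 219.9 and 98.8 CPM in CM + Rux, against 232, 382 and 181 CPM in CM, and replicate 2 stood highest in both groups, so that the groups overlapped. The log2 fold change was -0.94 (95% interval -1.72 to -0.16, edgeR adjusted p = 0.20). With the replicate block the same difference was -0.96 and called lower (adjusted p = 0.011). It was also called without replicate 2 of CM + Rux (-1.46, adjusted p = 0.029) and without a filter on low counts (-0.94, 0.0047), while without replicate 2 of CM it was -0.58 (adjusted p = 0.59).

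Zfp36 itself was at 515, 843 and 482 CPM in CM + Rux, with 1 sample above and 2 below the 3 CM samples. Its log2 fold change was -0.01 with a 95% interval of -0.63 to 0.61, and 0.0091 with scaling by total counts. Zc3h12a was at 402, 444 and 397 CPM in CM + Rux, and all 3 were under all 3 CM samples. The log2 fold change of -0.37 ± 0.10 SE missed both thresholds (edgeR adjusted p = 0.060). With the replicate block it was again -0.37 and missed only the fold threshold (edgeR adjusted p = 0.021). Elavl1, Rc3h1 and Rc3h2 had values between -0.03 and 0.02 with intervals inside ±0.27, Khsrp had -0.10 and Zc3h12c had 0.26 (interval -0.30 to 0.81).

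Ruxolitinib without tumor factors (DMEM + Rux against DMEM) gave 0 calls among the 9 genes, and 0.97% of all genes were called. By edgeR 0 of the 9 also had an unadjusted p under 0.05, and DESeq2 and the other settings called 0. Zfp36l1 was at 149, 203 and 194 CPM in DMEM + Rux, where the DMEM samples were at 141 and 202 CPM. Zfp36l2 was at 250.2, 217 and 202 CPM. The largest value of the 9 was that of Zc3h12c, at 63.7, 61.9 and 55.3 CPM against 102 and 67.2 CPM (log2 fold change -0.49, 95% interval -1.11 to 0.13).

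Whether ruxolitinib acted differently with and without tumor factors was tested as an interaction in the same model. It gave 0 calls among the 9 genes and calls for 0.412% of all genes, 0.234% higher and 0.178% lower. At an unadjusted p under 0.05 edgeR gave 1 gene, Zfp36l1, and DESeq2 called 0. For Zfp36l1 the effect in CM was lower than that in DMEM by a log2 difference of -1.24 ± 0.45 SE (edgeR adjusted p = 0.33). With the replicate block this was -1.42 and called (adjusted p = 0.0054), as it was without a filter on low counts (-1.24, adjusted p = 0.0090). Zfp36l2 had a difference of -0.91 (adjusted p = 0.74) and Zc3h12c one of 0.74 (adjusted p = 0.63), and with the block neither was called (-1.12 with adjusted p = 0.086 and 0.75 with adjusted p = 0.10).

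**Figure D2:**
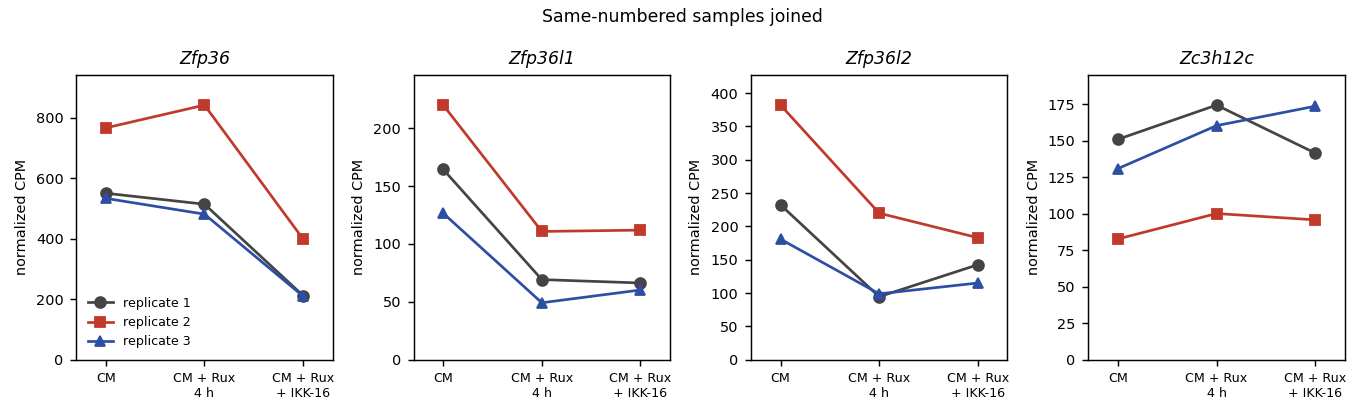
RLE-scaled CPM (linear axis from 0) of Zfp36, Zfp36l1, Zfp36l2 and Zc3h12c in CM, CM + Rux 4 h and CM + Rux + IKK-16, with samples of the same replicate number joined. Replicate 2 is the highest for the 3 TTP family genes and the lowest for Zc3h12c in each of these groups, and the line of each replicate falls from CM to CM + Rux for Zfp36l1 and Zfp36l2.

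The libraries of replicate 2 shared more than their number. In each of the 4 groups with CM, replicate 2 had the highest Zfp36 and Zfp36l2 of its group, for example 399 CPM of Zfp36 in CM + Rux + IKK-16 where the other 2 samples were at 212 and 210.2 CPM. Samples of the same number deviated together over all genes in 34 of 35 pairs.

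IKK-16 added to CM and ruxolitinib (CM + Rux + IKK-16 against CM + Rux) asks which levels depend on the kinases that activate NF-κB. Of the 9 genes 0 were called higher and 1 lower, Zfp36, while 7.74% of all genes were called in either direction, 4.07% higher and 3.66% lower. Zfp36 was at 212, 399 and 210.2 CPM, under all 3 samples of CM + Rux at 515, 843 and 482 CPM. The fold was 2.24 lower (log2 fold change -1.16 ± 0.29 SE, edgeR adjusted p = 0.017), and with the replicate block the log2 fold change was -1.17 (adjusted p = 0.0022). The call was lost without replicate 2 of CM + Rux (adjusted p = 0.077), replicate 1 of CM + Rux + IKK-16 (0.081) or replicate 3 of that group (0.073), and in a model of only these 2 groups (0.057).

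The other 8 genes were not called. Elavl1 was at 94.98, 95.95 and 94.18 CPM with IKK-16 and at 117, 114 and 116 CPM without, a difference that passed the p-value (edgeR adjusted p = 0.013) and not the fold (log2 fold change -0.28). Zc3h12a was at 308, 379.5 and 321 CPM with IKK-16, all under the 3 samples of CM + Rux, with a log2 fold change of -0.30 (95% interval -0.53 to -0.08, edgeR adjusted p = 0.071). With the replicate block its value was again -0.30 and missed only the fold threshold (edgeR adjusted p = 0.031). Zfp36l1 was at 66.2, 112 and 60.2 CPM and Zfp36l2 at 142, 183 and 115 CPM, in both cases across the range of CM + Rux. Their log2 fold changes were 0.05 and 0.09, with 95% intervals of -0.59 to 0.69 and -0.69 to 0.87. Zc3h12c, Rc3h1, Rc3h2 and Khsrp had values between -0.09 and -0.01. For Rc3h1 and Khsrp scaling by total counts turned the sign, to 0.02 and 0.07.

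Against CM alone, CM + Rux + IKK-16 had 3 of the 9 genes lower and 0 higher, with 12.7% of all genes called in either direction, 6.6% higher and 6.13% lower. The 3 genes were Zfp36 (log2 fold change -1.17, edgeR adjusted p = 0.011), Zfp36l1 (-1.10, 0.018) and Zc3h12a (-0.68, 0.00048). The shift of RLE against total counts, from the mean scaling factors of the groups, was -0.11 (log2). With the replicate block Zfp36l2 was called as well (-0.81, adjusted p = 0.011, against -0.85 and 0.11 without), as it was without a filter on low counts (-0.85, adjusted p = 0.0052), while without replicate 2 of CM its value was -0.49 (adjusted p = 0.41). The calls of Zfp36 and Zfp36l1 were lost without replicate 2 of CM (adjusted p = 0.051 and 0.082), without replicate 1 of the IKK-16 group (0.058 and 0.077) and without replicate 3 of that group (0.053 and 0.076). This comparison shares its samples with both comparisons it spans, so its values are no separate evidence.

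**Figure D3:**
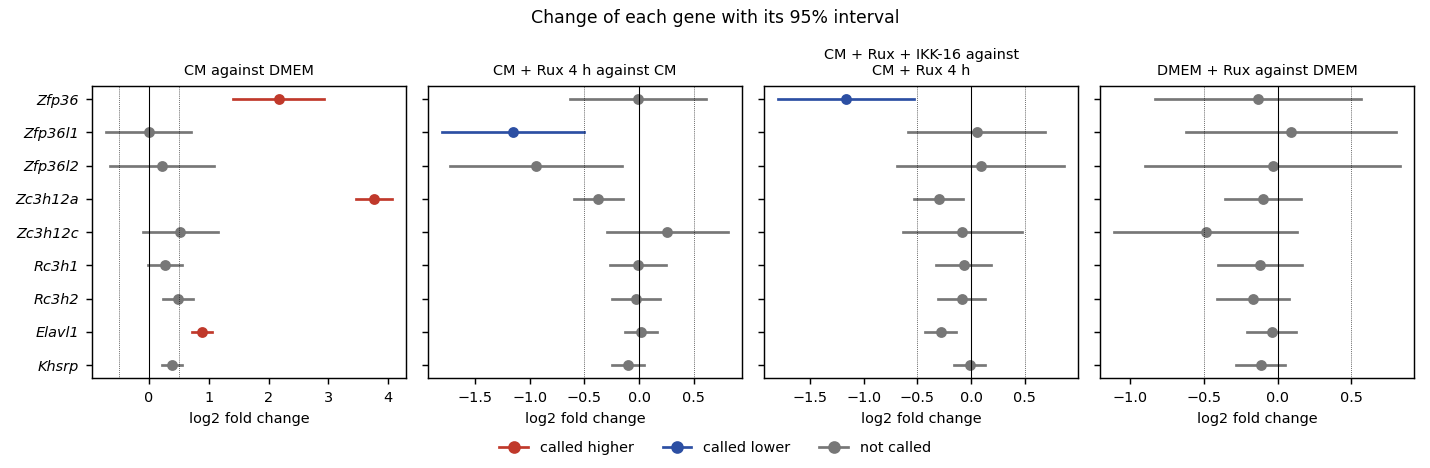
log2 fold change of each gene (points) with its 95% interval (lines) in 4 comparisons, with red for genes called higher, blue for called lower and grey for not called. Dotted lines mark 0.5 in either direction, and the horizontal scales differ between panels. Calls are at Zfp36, Zc3h12a and Elavl1 for CM, Zfp36l1 for ruxolitinib in CM and Zfp36 for IKK-16, and there is none for ruxolitinib in DMEM.

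The response to CM in the presence of ruxolitinib was read from CM + Rux against DMEM + Rux, where 5 of the 9 genes were higher and 1 lower, with 47.3% of all genes called, 22.3% higher and 25% lower. By the mean scaling factors of the groups, values with RLE were 0.30 (log2) above those from total counts. With scaling by total counts the members split into 4 higher and 2 lower. Zc3h12a (log2 fold change 3.48), Zfp36 (2.29), Zc3h12c (1.27), Elavl1 (0.94) and Rc3h2 (0.63) were higher and Zfp36l1 (-1.25) was lower, with edgeR adjusted p-values of at most 0.0022. Zc3h12c was at 174, 100.1 and 160.4 CPM in CM + Rux, all above the 3 DMEM + Rux samples, and its log2 fold change had a SE of 0.26. Zfp36l2 was called lower only with the block (-0.80, adjusted p = 0.0051, against -0.69 and 0.11), with total counts (-1.02, 0.016), without a filter on low counts (-0.69, 0.011), without replicate 2 of CM + Rux (-1.21, 0.0081) and with the block in a model of the 2 groups (-0.80, 0.020). Leaving out single samples gave values of -1.21 to -0.48 for it. This comparison and CM against DMEM share no samples, but each shares samples with CM + Rux against CM.

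At the 2 h label the pattern against DMEM + Rux was 6 of the 9 genes higher and 1 lower, with 40.1% of all genes called, 18.4% higher and 21.7% lower. Here RLE placed the values 0.37 (log2) higher by the mean scaling factors of the groups. With scaling by total counts the split was 2 higher and 2 lower, since Zc3h12c, Rc3h1, Rc3h2 and Elavl1 lost the call and Zfp36l2 gained it. Zc3h12a at 614 and 579.6 CPM had the largest fold of any comparison, 16.1 (log2 fold change 4.01 ± 0.12 SE, edgeR adjusted p = 1.2e-10). Zfp36 was at 719 and 399 CPM (log2 fold change 2.16) and Zfp36l1 at 74.1 and 58.2 CPM (-1.46). Zfp36l2 was at 185 and 77.2 CPM, both under the DMEM + Rux samples, with -0.76 (adjusted p = 0.13), and it was called with the block (-0.92, adjusted p = 0.0071), with total counts (-1.14, 0.019), without a filter on low counts (-0.76, 0.017) and without replicate 2 of the 2 h group (-1.54, 0.024). Without replicate 3 of the 2 h group it was -0.27 (adjusted p = 0.65). Zc3h12c was called (0.78, adjusted p = 0.031) and lost the call when any 1 of the 5 samples was left out (adjusted p of 0.052 to 0.15).

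Between the 2 h and the 4 h label, 1 of the 9 genes was higher at 2 h and 0 lower, with 23.3% of all genes called, 12.6% higher and 10.7% lower. Zc3h12a was higher at 2 h in both samples than in any of the 3 at 4 h (fold 1.44, log2 fold change 0.53 ± 0.12 SE, edgeR adjusted p = 0.0028). This value fell under the fold threshold without replicate 2 of the 2 h group (0.48), without replicate 3 of the 4 h group (0.50) and with scaling by total counts (0.46). Rc3h1 at 155 and 171 CPM was above the 4 h samples at 139.6, 115 and 114 CPM, with a log2 fold change of 0.41 under the threshold (adjusted p = 0.025). It was called without replicate 1 of the 4 h group (0.51, adjusted p = 0.012) and in a model of these 2 groups with the replicate block (0.54, adjusted p = 0.00093). The summed level of the 5 dendritic cell markers was 8.58 and 12.7 CPM in the 2 h samples, higher than in any other sample, and its part in these differences was not tested. With 2 samples labelled 2 h, and no label for their treatment beyond that, the hours and anything else that set these 2 samples apart cannot be told apart.

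The order of the 6 group means differed between the genes. For Zfp36 it was CM (617 ± 130.03 CPM, SD, n = 3), CM + Rux (613), CM + Rux 2 h (559), CM + Rux + IKK-16 (274), DMEM (137) and DMEM + Rux (125), and of the neighbours in this order only CM + Rux + IKK-16 and DMEM had samples that did not overlap. For Zfp36l1 it was DMEM + Rux (182 ± 29.1, n = 3), DMEM (171), CM (170.3), CM + Rux + IKK-16 (79.4), CM + Rux (76.4) and CM + Rux 2 h (66.2), and the one gap was between CM and CM + Rux + IKK-16. Zfp36l2 ran from CM (265 ± 105, n = 3) through DMEM and DMEM + Rux (223) to CM + Rux + IKK-16 (147), CM + Rux and CM + Rux 2 h (131), with its gap between DMEM + Rux and CM + Rux + IKK-16.

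Zc3h12a separated most of its groups. The order was CM + Rux 2 h (597 ± 24.4 CPM, SD, n = 2), CM (537), CM + Rux (414), CM + Rux + IKK-16 (336), DMEM (39.6) and DMEM + Rux (37.1), and only the first pair and the last pair of neighbours overlapped. Elavl1 had the tightest replicates, with a coefficient of variation of 0.935% in CM + Rux + IKK-16. Its order was CM + Rux (116), CM (114), CM + Rux 2 h (106), CM + Rux + IKK-16 (95.04), DMEM (61.9) and DMEM + Rux (60.3), with overlap only in the first and last pair. For Zc3h12c the single gap was between DMEM (84.5) and DMEM + Rux (60.3), for Rc3h1 between CM + Rux 2 h (163) and CM (124), and for Rc3h2 between CM + Rux + IKK-16 (86.8) and DMEM (67.1). Khsrp had gaps between CM (164) and CM + Rux (153) and between CM + Rux + IKK-16 (151) and DMEM (125).

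Per kb of merged exon, which allows levels of different genes to be compared, the TTP family genes led in DMEM. Zfp36l2 stood at 64.7, Zfp36l1 at 57.3 and Zfp36 at 39.5 CPM per kb, followed by Khsrp (29.1), Zc3h12a (13.7), Zc3h12c (12.3), Rc3h1 (9.02), Elavl1 (5.98) and Rc3h2 (3.42). In CM the order of the levels was Zc3h12a (186), Zfp36 (178), Zfp36l2 (75.1), Zfp36l1 (56.9), Khsrp (38.0), Zc3h12c (17.8), Elavl1 (11.02), Rc3h1 (10.8) and Rc3h2 (4.79). Merged exons are longer than the main transcript of genes with several isoforms, so that the levels of Rc3h2, with 19624 bases, and Rc3h1, with 11423, may be understated.

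Within the TTP family the share of Zfp36 followed from these levels. Zfp36 made up 28.1% and 21.0% of the summed level per kb of the 3 genes in the DMEM samples, and 21.8%, 19.7% and 25.9% in DMEM + Rux. It made up 56.8%, 54.9% and 62.2% in CM, 72.9% and 73.6% in CM + Rux 2 h, and 74.8%, 71.0% and 75.7% in CM + Rux. With IKK-16 it was 49.4%, 56.3% and 53.5%, under every sample of CM + Rux. As a fraction of the family this share does not depend on the scaling of the libraries. The summed level of the 3 genes was 162 ± 3.15 CPM per kb in DMEM, 160.2 ± 5.32 in DMEM + Rux, 309.9 ± 82.1 in CM, 241 ± 87.8 in CM + Rux and 147 ± 49.9 in CM + Rux + IKK-16 (SD). Between the DMEM samples and those with IKK-16 this sum overlapped, at 159 and 164 against 124, 204 and 113 CPM per kb.

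**Figure D4:**
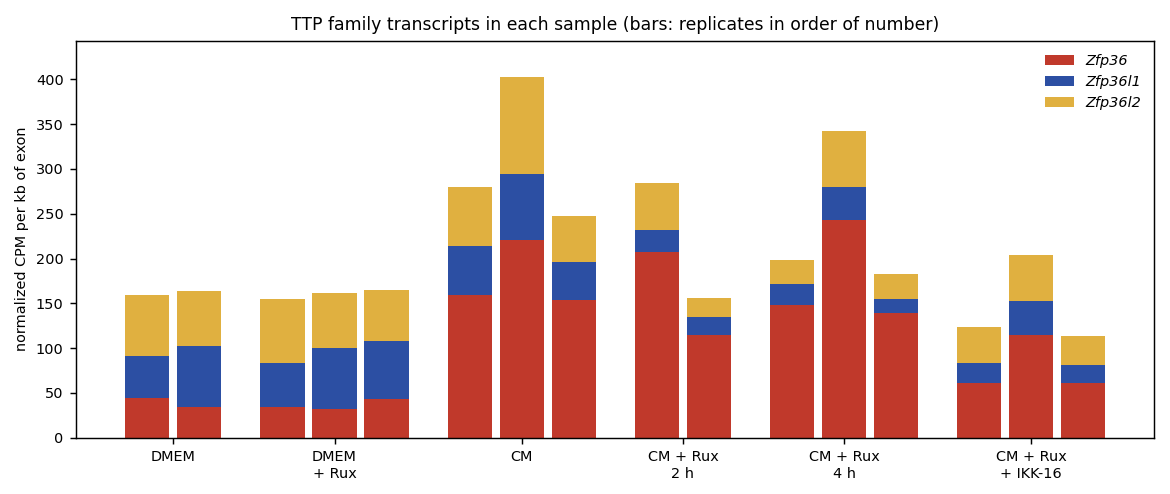
Stacked levels of Zfp36, Zfp36l1 and Zfp36l2 in RLE-scaled CPM per kb of merged exon in each sample (bars from 0, replicates in order of their number). Zfp36 is the smallest segment in every DMEM sample and the largest in every CM sample, and the bars of CM + Rux + IKK-16, at 124, 204 and 113 CPM per kb, span those of DMEM, at 159 and 164, and hold more Zfp36.

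The ratio of Zc3h12a to Zc3h12c per kb, also free of scaling, was 1.02 and 1.26 in DMEM and 1.30 to 1.74 in DMEM + Rux. It was 7.99, 17.2 and 9.13 in CM, 15.3 and 12.2 in CM + Rux 2 h, 5.47, 10.53 and 5.87 in CM + Rux, and 5.16, 9.41 and 4.39 in CM + Rux + IKK-16. Every sample with CM was above every sample without it. Replicate 2 had the highest ratio in each group with CM.

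The 5′ ends of the genes were looked at in the reference because the treatments act on transcription factors. RefSeq promoters (GRCm38.p6, 250 bases before to 50 after each start) held entries for 8 of the 9 genes, and Zfp36l2 had none in the table used. Both strands were searched for the STAT element TTCNNNGAA (GAS, in 8.3% of 32851 promoters), the NF-κB motif (5.8%), the AP-1 motif TGANTCA (7.81%), the CRE TGACGTCA (1.79%) and the CArG box of serum response factor (1.63%). The promoters of the 3 genes with the widest ranges are printed 5′ to 3′ on the strand of the gene, with matches in capitals.
Zfp36 (chr7:28379179-28379478, minus strand): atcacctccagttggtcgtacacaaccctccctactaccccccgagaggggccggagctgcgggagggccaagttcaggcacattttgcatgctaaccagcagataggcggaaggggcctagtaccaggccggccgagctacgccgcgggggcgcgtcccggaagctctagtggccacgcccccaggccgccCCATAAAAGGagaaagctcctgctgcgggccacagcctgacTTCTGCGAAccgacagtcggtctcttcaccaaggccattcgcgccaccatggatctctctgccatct
Zc3h12a (chr4:125127832-125128131, minus strand): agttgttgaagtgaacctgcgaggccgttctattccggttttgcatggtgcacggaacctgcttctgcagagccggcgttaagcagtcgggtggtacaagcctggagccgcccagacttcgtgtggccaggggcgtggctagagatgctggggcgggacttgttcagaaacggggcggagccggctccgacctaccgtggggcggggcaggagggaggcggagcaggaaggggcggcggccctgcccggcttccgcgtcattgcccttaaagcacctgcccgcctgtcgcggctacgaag
Zfp36l1 (chr12:80112964-80113263, minus strand): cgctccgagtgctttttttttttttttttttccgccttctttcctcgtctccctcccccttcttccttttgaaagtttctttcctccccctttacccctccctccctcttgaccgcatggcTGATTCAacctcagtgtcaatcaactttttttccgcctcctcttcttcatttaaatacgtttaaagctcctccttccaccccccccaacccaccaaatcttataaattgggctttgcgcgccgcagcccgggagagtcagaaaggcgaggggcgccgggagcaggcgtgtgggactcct

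The window of Zfp36 held a CArG box, CCATAAAAGG, from -58 to -49 and a GAS, TTCTGCGAA, from -17 to -9 relative to the start. That of Zfp36l1 held an AP-1 motif from -129 to -123, and that of Zc3h12a held none of the 5. Of the other members Rc3h1 held an AP-1 motif, from -133 to -127, and the rest had no match. No match says only that these letters are not in this window.

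The messages that these proteins are known to act on were described with a list of 22 targets, of which 21 were tested, among them Tnf, Il6, Csf2, Cxcl1 and Ier3. In CM against DMEM 19 were higher and 1 lower, with a median log2 fold change of 5.84 (5.69 with 4 genes at their bounds and Csf2, at the limit of counts in both groups, left out), where the median of all genes was -0.00. Among all genes 20.9% were called higher and 24.1% lower. Il6 was at least 1782-fold higher, since it had no count in the DMEM samples and was set against 3 counts per sample, Il1a rose by a log2 fold change of 12.49 ± 0.83 SE (edgeR adjusted p = 3.9e-08), and Il23a was at least 87.9-fold higher. Icos, a T cell gene that Roquin is known for, was the one called lower (-2.05, edgeR adjusted p = 0.0011), at a highest count of 51 in a DMEM sample. The targets, the decay factors Zfp36 and Zc3h12a and the stabilizing factor Elavl1 thus rose in the same samples.

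With ruxolitinib in CM, 2 of the 21 were higher and 0 lower (median 0.26, all genes 0.01), where 1.2% of all genes were called higher and 2.13% lower. Csf2, with at most 34 counts in a sample, was at least 5.77-fold higher against 3 counts per CM sample, and Lif rose by a log2 fold change of 2.41 (edgeR adjusted p = 0.016). This count was 5 higher and 2 lower with the replicate block, and it was 1 or 4 higher when single samples were left out (1 without replicate 1 of CM, replicate 3 of CM or replicate 1 of CM + Rux, and 4 without replicate 2 of CM). In a model of only these 2 groups 0 were higher, and with the block in that model 6 were higher and 2 lower. Without a filter on low counts 5 were higher and 1 lower. All genes called went from 412 to 315, 863 and 685 in the same order.

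With IKK-16 added, 10 of the 21 were lower and 0 higher (median -0.94, all genes -0.00), where 3.66% of all genes were called lower and 4.07% higher. Csf2 (log2 fold change -3.39), Il23a (-3.20) and Lcn2 (-3.19) had the largest falls, with edgeR adjusted p-values of 0.0037, 0.049 and 0.00017. The value of Csf2 rests on few counts, at most 34 in a sample of CM + Rux and at most 7 with IKK-16. Without a filter on low counts 16 were lower, and with the replicate block 1 was also higher. Tnf, whose message holds the most nonamers of the printed set, had -0.94 and was not called. In DMEM + Rux against DMEM edgeR called 0 of the 21, where 0.97% of all genes were called, and 2 had an unadjusted p under 0.05.

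**Figure D5:**
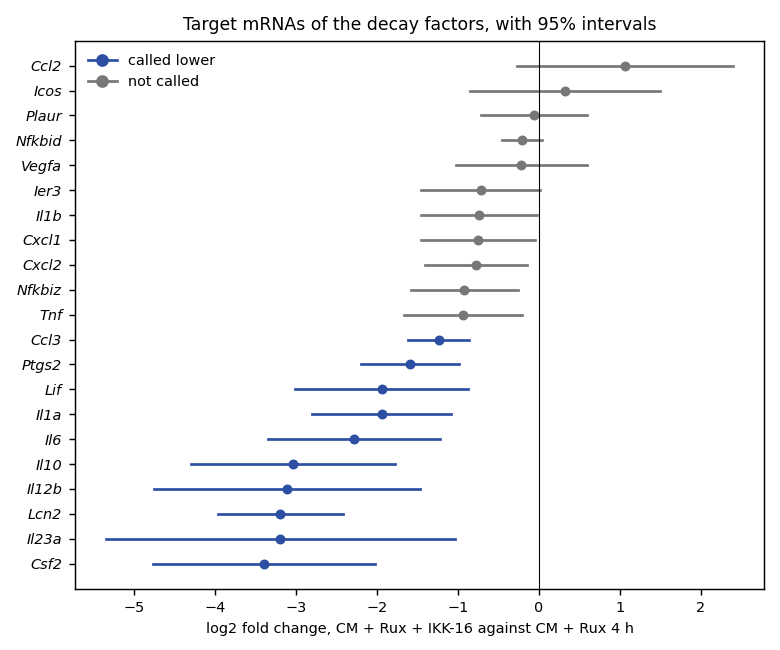
log2 fold change (points) with its 95% interval (lines) of the 21 target messages tested in CM + Rux + IKK-16 against CM + Rux 4 h, sorted by value. The 10 called lower, in blue, run from Ccl3 (-1.24) to Csf2 (-3.39), and Ccl2 (1.06) has the highest value and is not called. Csf2 has at most 34 counts in a sample of these groups.

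The enzymes that carry out deadenylation, decapping and exosome decay were described with a list of 48 genes, of which 47 were tested. In CM against DMEM 9 were higher and 7 lower (median 0.14), where 20.9% of all genes were called higher and 24.1% lower. With scaling by total counts the split turned to 3 higher and 15 lower, so the direction of the split depended on the scaling. Btg1, which stimulates deadenylation, had the largest rise (log2 fold change 2.60 ± 0.24 SE), followed by the deadenylases Cnot7 (1.14) and Cnot6 (0.88), and the deadenylases Parn (-0.95) and Pan2 (-0.88) and the decapping cofactor Lsm5 (-0.73) had the largest falls, all with edgeR adjusted p-values of at most 0.021. Without replicate 2 of DMEM 4 were lower. Ruxolitinib in CM gave 0 calls among the 47, by edgeR and by DESeq2, and edgeR gave 3 at an unadjusted p under 0.05. For all genes edgeR called 3.33% in this comparison. With IKK-16 Pan2 was higher (0.65) and Btg2 lower (-0.64), where 4.07% of all genes were called higher and 3.66% lower. The call of Btg2 was lost without replicate 2 of CM + Rux and without replicates 1 or 3 of the IKK-16 group.

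Of 15 other proteins that bind such elements, 14 were tested, and 4 were higher and 0 lower in CM (median 0.30), or 2 higher and 1 lower with scaling by total counts. For all genes the shares in this comparison were 20.9% higher and 24.1% lower. Arid5a, which protects Il6 messages from Regnase-1, rose by a log2 fold change of 2.70 ± 0.39 SE, N4bp1, a ribonuclease, by 2.24 ± 0.13 SE and Hnrnpa0 by 0.66 ± 0.08 SE, with edgeR adjusted p-values of at most 4.3e-05. Ruxolitinib in CM and IKK-16 gave 0 calls each by edgeR, with 2 and 7 genes at an unadjusted p under 0.05, while DESeq2, and edgeR with the replicate block, called 1 lower in each. Of all genes tested edgeR called 3.33% with ruxolitinib in CM and 7.74% with IKK-16.

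The 12 genes for kinases, phosphatases, proteases and ligase subunits that act on TTP or Regnase-1 were all tested, and 6 were higher and 1 lower in CM (median 0.58). Among all genes tested 45% were called, 20.9% higher and 24.1% lower. Malt1, the protease that cleaves Regnase-1, rose by a log2 fold change of 3.204 ± 0.13 SE and Dusp1, the phosphatase that shuts off p38, by 3.02 ± 0.42 SE. Mapkapk3 rose by 1.61 ± 0.12 SE, and Mapk14, which encodes p38α, fell by 1.21. For ruxolitinib in CM edgeR and DESeq2 called 0 of the 12, and edgeR gave 3 at an unadjusted p under 0.05. For all genes edgeR called 3.33% here. With IKK-16 Mapkapk2, the kinase that phosphorylates TTP, was lower (-0.83, edgeR adjusted p = 0.00019), as was Malt1 (-0.71, edgeR adjusted p = 0.00051). Of all genes 3.66% were called lower and 4.07% higher with IKK-16. With the replicate block or DESeq2 4 of the 12 were lower, while all genes called went from 957 to 1342 and 1074.

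Likeness of pattern was measured as Pearson's r of log2 CPM over the 16 samples, among all genes tested. The points share 6 groups and their libraries, so r describes these samples only. For Zc3h12a the nearest genes were Adora2b (0.997), Cish (0.995) and AI504432 (0.994). For Zfp36 they were Ppp1ca (0.987), Hnrnpa0 (0.977) and Myadm (0.972), and for Zfp36l1 Neurl2 (0.931), Qpctl (0.899) and Fgf11 (0.886). Among the members Zc3h12a and Elavl1 were most alike (0.971), Zfp36l1 and Zfp36l2 had 0.862, and Zfp36 had -0.32 with Zfp36l1.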

How the data were processed

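The authors trimmed reads with Trimmomatic 0.33, aligned them to GRCm38 with HISAT2 2.1.0 and counted fragments per gene with featureCounts 1.6.2. The header of the deposited counts names the Ensembl 100 annotation, reverse-stranded counting and a mapping quality of at least 10. The deposited counts are whole numbers, not normalized. Symbols, positions and UTRs came from GENCODE M21, also GRCm38, and 346 of 55487 identifiers had no symbol. No column lacked a sample. Of genes that overlap members on the same strand none had more than 3 counts in all samples together. After RLE scaling and a filter that asked for more than 1 CPM in no fewer than 2 samples, edgeR 4.0.16 (R 4.3.3) fitted 1 quasi-likelihood model to the 16 samples in 6 groups, and p-values were adjusted by Benjamini-Hochberg. The study's section on gene expression also describes edgeR, with RLE scaling and the same filter and thresholds. Its section on statistics names a t test for RNA-seq, which was not used here.

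The members and lists were chosen with earlier results of these data known. The text names all members and, of each list and comparison, at most 3 called genes that rose most and 3 that fell most, and the 3 genes nearest in pattern to each of the 3 members of widest range. Btg2, Ccl2, Ccl3 and Tnf, where given beyond this, were named after their values were seen. The main model did not pair samples, and pairing by replicate number entered only through the replicate block, an alternative. Deviations of same-numbered samples from their group means correlated in 34 of 35 pairs with r over 0.1 (median 0.36). The exception was the single pair of CM + Rux 2 h and DMEM. Samples of other numbers had a median of -0.12. Deviations cancel out within each group, so this negative value follows from the positive ones, and the pairs are not independent. The reason to pair comes from the data, since the labels give only shared numbers. The alternatives were TMM, total counts, no filter, filterByExpr, the replicate block, a model of just the groups compared (with the block and without it), DESeq2 1.42.0, no fold threshold, and each sample left out. No samples were copies of each other. The scripts were tested on simulated data. Other steps used Python with pandas and matplotlib.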

Additional observations from a re-analysis of the deposited data

Results flagged for a closer look

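The effect of ruxolitinib on Zfp36l1 differed between CM and DMEM when the replicate number was a term of the model. The log2 difference of the 2 effects was -1.42 (edgeR, adjusted p = 0.0054), and without this term it was -1.24 and not called (adjusted p = 0.33). It was called with the block in a model of the groups compared (-1.43, edgeR adjusted p = 0.020). Without the block it was called without a filter on low counts (-1.24, 0.0090), and not with TMM, total counts, filterByExpr or DESeq2. In CM, Zfp36l1 was lower with ruxolitinib in 3 of 3 same-numbered pairs. In DMEM it was at 149 against 141 CPM in replicate 1 and at 203 against 202 CPM in replicate 2. The DMEM group had no replicate 3.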

How the results depend on the processing

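Of 1224 results for single members under the alternatives, 1087 kept their direction and their side of the threshold, 36 gained a call, 28 lost one and 73 changed sign, and none of those that changed sign was called before or after. The number of members called in CM against DMEM was 3 and became 5 without the fold threshold. It became 4 without the filter on low counts, with the replicate block and with the block in a model of the groups compared. All genes called went from 5564 to 7647, 6126, 5836 and 5477 in the same order. In CM + Rux against CM the number of members was 1, became 2 without the filter on low counts, with the replicate block and with the block in a model of the groups compared, and became 0 in a model of those groups without the block, while all genes called went from 412 to 685, 745, 863 and 315. For IKK-16 it was 1, became 2 without the fold threshold and 0 in a model of the groups compared. All genes called went from 957 to 1778 and 779 in the same order. The interaction went from 0 to 1 without the filter, with the replicate block and with the block in a model of the groups compared, and all genes called from 51 to 349, 444 and 329 (DESeq2 237). For the 2 h label against DMEM + Rux it went from 7 to 4 with total counts, while all genes called went from 4964 to 6413. For 2 h against 4 h it went from 1 to 2 without the fold threshold and with the block in a model of the groups compared, and to 0 with total counts. All genes called went from 2883 to 4726, 2914 and 3043 in the same order. Leaving out single samples gave 3 to 4 members for CM against DMEM, 0 to 2 for CM + Rux against CM, 0 to 1 for IKK-16, 1 to 3 for CM + Rux + IKK-16 against CM, 6 to 7 for CM + Rux and for CM + Rux 2 h against DMEM + Rux, 0 to 2 for 2 h against 4 h, and 0 for DMEM + Rux against DMEM and for the interaction. All genes called also moved when single samples were left out. They ranged from 243 to 486 for CM + Rux against CM and from 668 to 1029 for IKK-16. For CM + Rux + IKK-16 against CM the range was 1136 to 1710, and for CM + Rux against DMEM + Rux 5562 to 5818. Leaving out a CM sample gave 5223 to 5544 for CM against DMEM. The replicate block changed no call of a member other than those given with their blocked value. The values that changed sign were, with TMM, Khsrp 0.0011 for IKK-16 and Rc3h2 0.010 for 2 h against 4 h. With total counts they were Zfp36l2 -0.11 and Rc3h1 -0.042 for CM, Zfp36 0.0091 and Rc3h1 0.014 for CM + Rux against CM, Rc3h1 0.018 and Khsrp 0.071 for IKK-16, and Rc3h1 0.031 for CM + Rux + IKK-16 against CM. With the replicate block they were Zfp36l1 0.10 for CM, Zfp36l2 0.16 for DMEM + Rux, Khsrp -0.0051 for the interaction, and Rc3h2 0.053 and Khsrp 0.012 for 2 h against 4 h, and with the block in a model of the groups compared 0.16, 0.028, -0.0090, 0.070 and 0.028 in the same order. In a model of the groups compared without the block they were Rc3h2 0.020 and Khsrp 0.0082 for 2 h against 4 h. Leaving out single samples also turned signs, with ranges of -0.25 to 0.28 for Zfp36l1 and -0.14 to 0.43 for Zfp36l2 in CM against DMEM; of -0.31 to 0.18 for Zfp36, -0.11 to 0.040 for Rc3h1 and -0.084 to 0.033 for Rc3h2 in CM + Rux against CM; of -0.28 to 0.42 for Zfp36l1, -0.12 to 0.60 for Zfp36l2, -0.29 to 0.12 for Zc3h12c, -0.12 to 0.033 for Rc3h1 and -0.054 to 0.020 for Khsrp with IKK-16; of -0.31 to 0.068 for Zfp36, -0.15 to 0.37 for Zfp36l1, -0.12 to 0.033 for Zfp36l2, -0.24 to 0.059 for Zc3h12a, -0.24 to 0.0024 for Rc3h1 and -0.18 to 0.12 for Elavl1 in DMEM + Rux against DMEM; of -0.18 to 0.31 for Zfp36, -0.015 to 0.22 for Rc3h1, -0.10 to 0.20 for Elavl1 and -0.090 to 0.10 for Khsrp in the interaction; of -0.62 to 0.23 for Zfp36, -0.44 to 0.16 for Zfp36l1, -0.84 to 0.44 for Zfp36l2, -0.061 to 0.042 for Rc3h2 and -0.073 to 0.039 for Khsrp between 2 h and 4 h; and of -0.041 to 0.38 for Zc3h12c in CM + Rux + IKK-16 against CM. The cause of these changes was not tested. Depth does not limit the members, whose lowest count was 755. Groups hold 2 or 3 samples.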
